A study of Saccharomyces cerevisiae with 180 samples.

Results

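The middle zone was the stretch of long yeast genes between the promoter-proximal and the distal part of the coding sequence. Its members were the nucleosomes of the deposited atlas whose centre lay 500 to 1000 bp downstream of the start codon, in exactly 1 protein-coding ORF of at least 1500 bp. By this rule there were 6805 members of 65032 nucleosomes with counts, in 2207 of 2248 such genes. Most genes held 3 members (1622 genes), and the others 4, 2 (178 genes) or 1 (15 genes). The members were mostly nucleosome 4 (28.6%), 5 (31.9%), 6 (28.3%) or 7 (8.01%) of their ORF, counted from the start codon. They were set against the 5-prime zone of the same genes (under 500 bp, 6646 nucleosomes) and the late zone (from 1000 bp, 19805 nucleosomes).

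Trimethylation of histone H3 lysine 4 (K4me3) is laid down by Set1 near the start of transcribed genes, and trimethylation of lysine 36 (K36me3) by Set2, which travels with elongating RNA polymerase II. K36 methylation is bound by Eaf3, a subunit of the Rpd3S histone deacetylase, which keeps transcribed coding sequence poorly acetylated; Eaf3 is also part of the NuA4 acetyltransferase. Acetylation of lysine 18 (K18ac) is typical of promoters and 5-prime ends, and methylation of lysine 79 (K79me3), laid down by Dot1, of gene bodies. The middle zone lies where the K4me3 domain gives way to the K36me3 domain.

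The data were 180 libraries of combinatorial indexed chromatin immunoprecipitation, in which MNase-digested, formaldehyde-fixed nucleosomes are precipitated with a first antibody and then taken through a second step labelled with an antibody or as Input. Input is taken here to be material from the first precipitation alone; this is an assumption, since no label defines it, and every single-mark value rests on it. The first set held the histone mutants H3K4R, H3K18R and H3K36R, in which the named lysine is replaced by arginine, and their reference WT H3 (30 libraries each, with antibodies to H3, K4me3, K18ac, K36me3 and K79me3). The second set held the deletion strains eaf3 and set2 and their reference, labelled bar1 and titled as wild type (20 libraries each, with antibodies to the 4 marks, each followed by a mark or Input). All strains were grown in YPD medium at 30 °C. Each strain and antibody combination was 1 library, so a difference between 2 libraries has no replicate check; intervals given here are 95% and cover counting error only. PCR copies cannot be told from separate molecules in these counts.

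Libraries held 150 to 2693698 reads on the atlas (median 110476.5), with 18 to 401522 on the members, and 32 libraries held under 10000. The deleted genes were depleted in their strains: SET2 had 7.67 CPM (reads scaled to the library total, per 1e6) in set2, 2.47% of the median of the other strains, and EAF3 had 6.73 CPM in eaf3, 6.10%. BAR1 kept its reads in the strain carrying the label bar1 (125 CPM, 86.8% of the other strains), whereas the helicase gene NAM7 had 6 reads there, 0.217% of the other strains. That strain is therefore named by its label throughout, and every eaf3 and set2 difference below is drawn against it. The libraries of a mark with Input held fewer reads than in the reference where the modified lysine or its enzyme was missing. The K4me3 library with Input held 3639 reads in H3K4R, against 758641 in WT H3. The K36me3 library held 434317 reads in H3K36R, against 2509006 in WT H3, and 24149 in set2, against 348217 in the strain labelled bar1. Pair libraries did not all follow: K36me3 then K4me3 held 390200 reads in H3K36R, against 383876 in WT H3. Totals also differed where no mark was lost. K79me3 with Input held 10044 reads in the strain labelled bar1 and 715681 in set2, so read totals are no direct measure of antibody yield.

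In WT H3, the middle zone carried more of the K4me3 signal than of any other single mark, and K4me3 was far lower at its downstream end than at its upstream end while K36me3 was slightly higher there. The measure here is the share of a library's reads in the 3 zones of these genes that lay in the middle zone. It was 27.4% for K4me3 (27.3 to 27.6%), 21.3% for K18ac, 20.9% for K36me3 and 20.8% for K79me3, against 19.7% for H3 (19.4 to 19.9%). As a log2 ratio over H3, K4me3 was at 0.48 (0.46 to 0.50), K18ac at 0.11 (0.10 to 0.13), K36me3 at 0.09 (0.07 to 0.11) and K79me3 at 0.08 (0.06 to 0.10). The 5-prime zone held 49.4% of the K4me3 reads but 9.54% of the K36me3 reads, and the late zone held 23.2% of the K4me3 reads and 69.5% of the K36me3 reads. K18ac, with 30.1% in the 5-prime zone and 48.6% in the late zone, was the other mark skewed to the start of the gene.

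In bins of 50 bp, each library's share was set over that of H3 pooled from 8 libraries of the first set (1391712 reads). K4me3 in WT H3 stood at 1.11 (log2) in the first bin of the zone and at -0.41 in the last, and crossed the H3 level at 863 bp. K18ac went the same way with a smaller span, at 0.43 in the first bin and -0.16 in the last, with its crossing at 835 bp. K36me3 stood at -0.20 in the first bin and 0.16 in the last, having crossed H3 upward at 586 bp. Between 586 and 863 bp both methyl marks were therefore above H3 on this scale. K79me3 stood at -0.05 in the first bin and 0.11 in the last. The strain labelled bar1 gave a K4me3 crossing at 844 bp, close to that of WT H3 (863 bp). K36me3 there first rose above H3 at 1084 bp, outside the zone, and crossed it 3 times, the last at 1190.5 bp. The second set has no H3 library, so these crossings rest on H3 of the first set. That K36me3 profile was shallow, at -0.30 in the first bin of the zone and -0.04 in the last, so a small offset would move its crossing far. Whether the K36me3 edge differs between the reference strains cannot be told from these crossings.

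**Figure D1:**
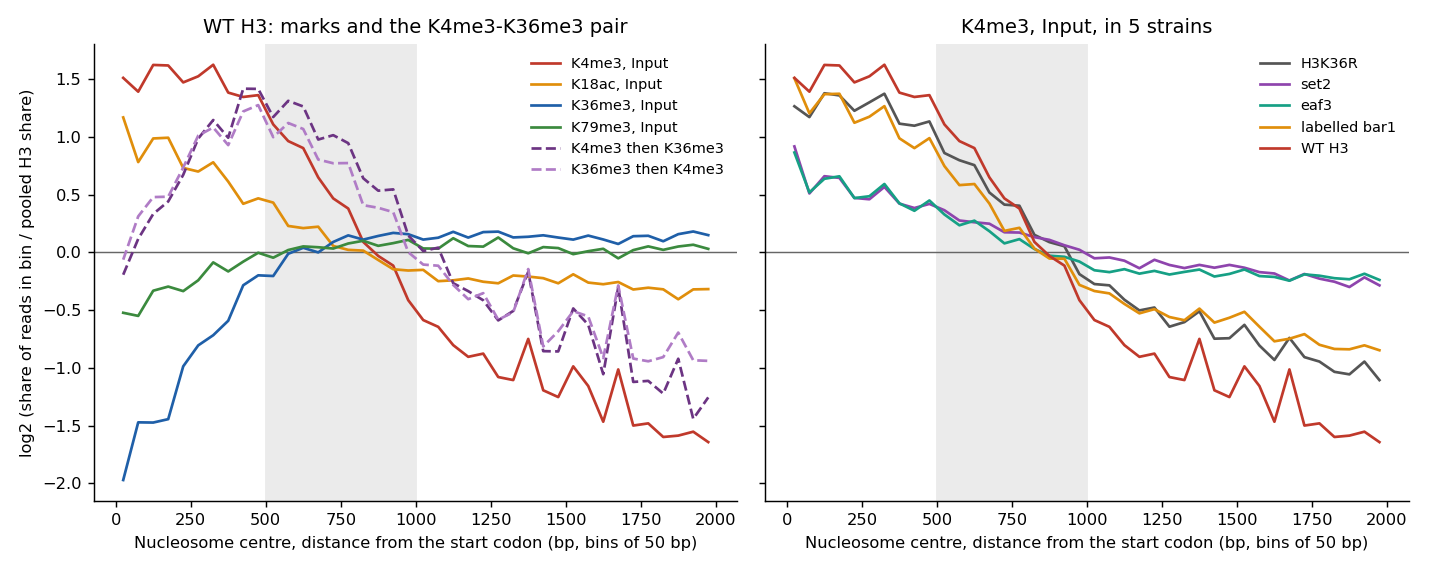
Log2 of each library's share of reads over the pooled H3 share, by distance of the nucleosome centre from the start codon in bins of 50 bp (genes of at least 1500 bp; grey, the middle zone; 1 library a line). Left, the 4 marks and the K4me3-K36me3 pair in WT H3: K4me3 crosses 0 at 863 bp and K36me3 at 586 bp, and both orders of the pair peak between 400 and 500 bp. Right, K4me3 in H3K36R, set2 and eaf3 beside the strain labelled bar1 and WT H3: the eaf3 and set2 lines are the flattest through the zone.

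The same gradient was present inside single genes. Among 1993 genes with at least 3 members and at least 10 pooled H3 reads on the first and last of them, the last member had less K4me3 relative to H3 than the first in 89.1% of genes in WT H3, and less K18ac in 70.0%. K36me3 went the other way and was higher on the last member in 64.7%. By position in the ORF, with CPM of the mark over CPM of pooled H3, summed K4me3 was at 0.54 on nucleosome 4, 0.08 on nucleosome 5, -0.43 on nucleosome 6 and -0.70 on nucleosome 7, while K36me3 was at 0.28, 0.42, 0.50 and 0.60 on the same classes. This CPM scale counts all reads of a library, intergenic ones included, and gave a median gene level of -0.08 for K4me3 and 0.43 for K36me3 over the 1975 genes with at least 50 pooled H3 reads. When CPM was taken over the reads in the 3 zones alone, those medians were 0.29 and 0.09, so levels of different marks on the CPM scale are compared below only between genes.

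Counted nucleosome by nucleosome, 960 members (14.2% of the 6772 with at least 10 pooled H3 reads) had at least 2-fold more K4me3 than H3 in WT H3, against 21.7% of all 50831 ORF nucleosomes tested, 58.2% of the 5-prime zone and 0.62% of the late zone. For K36me3 it was 13.5% of members against 8.81% of all, with 2.39% in the 5-prime zone and 12.9% in the late zone. K18ac passed 2-fold on 2.36% of members against 10.2% of all, and K79me3 on 6.96% against 4.43%. With CPM over zone reads the counts changed to 1723 members for K4me3 and 262 for K36me3, against 916 for K36me3 on the CPM scale.

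The pair of K4me3 and K36me3 was more concentrated in the middle zone than either mark alone. Among all 30 WT H3 libraries, those of K4me3 followed by K36me3 (36.5%, 36.03 to 36.99%) and K36me3 followed by K4me3 (32.1%, 31.9 to 32.3%) had the highest middle-zone shares, ahead of K4me3 then K79me3 (31.5%) and K79me3 then K4me3 (29.9%). The same pair led in the strain labelled bar1, with 28.2% and 27.4% of 20 libraries. Neither mark alone reached these values: K4me3 gave 27.4% and K36me3 20.9% in WT H3. If nucleosomes carried the marks independently within each zone, multiplying the zone enrichments of the single marks would give a middle-zone share of 35.8% in WT H3. The observed shares were 0.03 above this value on the log2 scale in the order K4me3 then K36me3 and 0.16 below it in the other order; in the strain labelled bar1 they were 0.14 and 0.10 above a product of 25.6%. The first of these values changed sign with other zone borders (-0.020 at 400 to 900 bp). On the profile the pair peaked just before the zone, at 1.42 between 400 and 450 bp for K4me3 then K36me3 and at 1.28 between 450 and 500 bp for the other order. In both orders 19.8% of members had at least 2-fold more of the pair than of H3, against 12.1% of all nucleosomes, 22.2% of the 5-prime zone and 1.64% of the late zone. The pair was thus not confined to the middle zone. Summed CPM over pooled H3 in WT H3 was 0.77 and 0.61 (log2) on the members and 0.75 and 0.76 in the 5-prime zone. In the strain labelled bar1 it was 0.34 and 0.41 on the members, below 0.74 and 0.65 in the 5-prime zone.

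The middle-zone share of the pair libraries was lower in H3K36R, H3K4R, eaf3 and set2 than in their references. Middle-zone shares of K4me3 then K36me3 and of K36me3 then K4me3 were 37.6% and 33.7% in H3K18R, 27.6% and 27.4% in H3K36R, and 22.1% and 21.2% in H3K4R, against 36.5% and 32.1% in WT H3. The H3K4R values rest on 416 and 2620 zone reads, with intervals of 18.4 to 26.3% and 19.7 to 22.8%. In the second set they were 24.3% and 25.6% in eaf3 and 23.8% and 25.4% in set2, against 28.2% and 27.4% in the strain labelled bar1. H3K18R was thus the only strain of the 5 mutants and deletions in which both orders were at or above their reference. H3K4R cannot carry K4me3, and H3K36R and set2 lack K36me3, so their pair libraries hold what the antibodies brought down without that mark. Only the eaf3 and H3K18R values bear on nucleosomes with both marks. In eaf3, late over middle reads of the 2 orders were 0.67 and 0.30 higher (log2) than in the strain labelled bar1. Middle over 5-prime reads were also higher, by 0.37 and 0.17. K4me3 with Input had a lower middle-zone share in eaf3 too (21.6%, against 24.0%). Over the product of the single marks, the 2 orders stood at 0.16 and 0.23 in eaf3, against 0.14 and 0.10. The lower eaf3 shares thus do not show fewer nucleosomes with both marks.

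**Figure D2:**
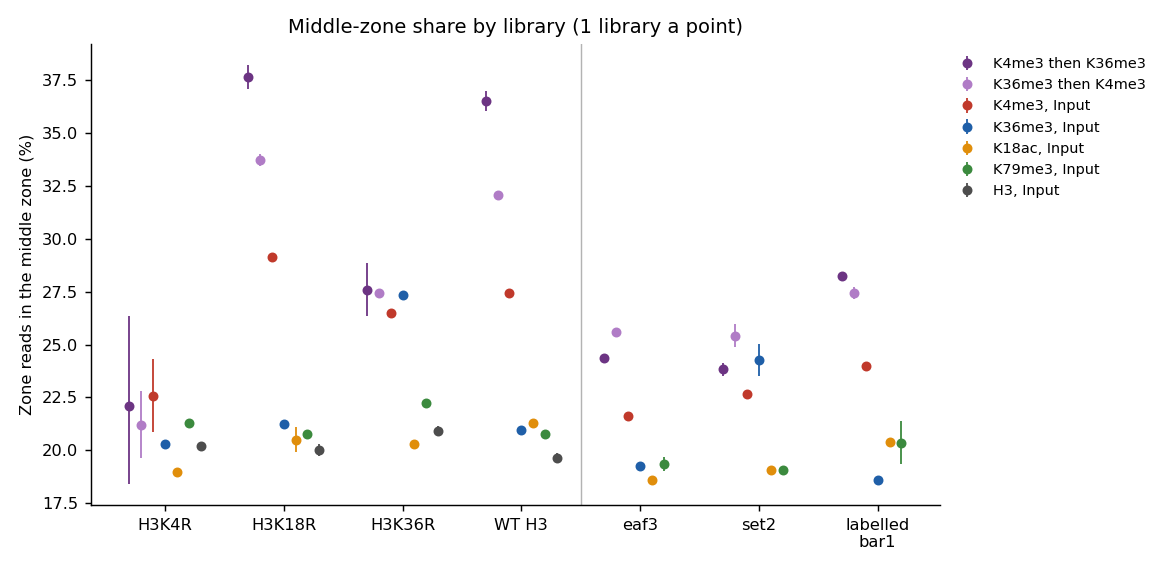
Share of a library's zone reads that lay in the middle zone (%, genes of at least 1500 bp), by strain, 1 library a point, with 95% Wilson intervals; mutants stand left of WT H3 and deletions left of the strain labelled bar1. The 2 orders of the K4me3-K36me3 pair are highest in WT H3 (36.5% and 32.1%) and H3K18R (37.6% and 33.7%), and the K36me3 libraries of H3K36R (27.3%) and set2 (24.3%) stand above those of the other strains.

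In the strains without K36me3, the material brought down by the K36me3 antibody lay further toward the start of the gene. Its middle-zone share with Input was 27.3% in H3K36R, against 20.9% in WT H3, and 24.3% in set2, against 18.6% in the strain labelled bar1. Along the gene these profiles fell below H3 at 944 bp in H3K36R and 967 bp in set2, near the K4me3 crossings of the same strains (936 and 991 bp), where K36me3 in WT H3 had risen. In H3K36R the last member of a gene had less K36me3 signal than the first in 79.9% of genes, against 35.2% in WT H3. In set2 that share was 54.3%, against 44.3% in the strain labelled bar1, but it does not measure the antibody signal. The median level in set2 was -3.80 on the first member and -3.94 on the last, values of members without reads in this library. Where neither member has reads, their H3 counts alone set which is lower. The read totals of these libraries with Input, given above, were far below those of their references. The part that antibody cross-reaction or background had in them was not tested. Pairs that include K36me3 in H3K36R and set2 carry this signal.

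In eaf3, set2 and H3K36R, K4me3 was flatter across the middle zone. The first bin stood at 0.33 (log2 over pooled H3) in eaf3 and 0.37 in set2, against 0.75 in the strain labelled bar1, and the last bin at -0.08 in eaf3 and 0.02 in set2, against -0.28. In H3K36R the bins stood at 0.86 and -0.19, against 1.11 and -0.41 in WT H3. The K4me3 crossing lay at 851 bp in eaf3 and 991 bp in set2, against 844 bp, and at 936 bp in H3K36R, against 863 bp in WT H3. H3K18R, which keeps K36me3, had its crossing at 942 bp and a first and last bin at 1.06 and -0.16, so a later crossing and a smaller span were not confined to strains without it. Its middle over 5-prime K4me3 with Input was 0.26 above that of WT H3, against 0.19 for H3K36R. Within genes, the last member had less K4me3 than the first in 68.8% of genes in eaf3 and 63.0% in set2, against 79.5% in the strain labelled bar1, and in 83.6% in H3K36R, against 89.1% in WT H3. For K18ac the genes were near an even split: 49.8% of genes had less on the last member in eaf3 and 45.9% in set2, against 64.3%, and 53.6% in H3K36R, against 70.0%.

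The strain differences were tested over the antibody pairs, with the 6 ordered pairs that include a mark set against the 6 that do not, by a two-sided exact permutation test over all assignments of the 12 pairs, whose smallest p-value is 0.00216. The pairs share the first-step chromatin of 1 culture per strain, so the p-values measure spread between antibody combinations and not between cultures. For the log2 ratio of middle-zone over 5-prime reads, 1 of 16 comparisons passed the threshold of 0.05 after Benjamini-Hochberg adjustment. K4me3 pairs in eaf3 were higher than in the strain labelled bar1 by 0.40 ± 0.19 (SD, 6 of 6 pairs higher, 0.17 to 0.75), and pairs without K4me3 by 0.01 ± 0.17. The exact permutation test of this difference of 0.39 gave p = 0.00216, adjusted p = 0.0346. For the single mark, middle over 5-prime K4me3 with Input was 0.50 higher in eaf3 and 0.57 higher in set2. The test treats the 2 orders of a pair as separate. With the orders averaged, 3 pairs stand against 3 and the exact permutation test cannot go below p = 0.1, which is the value it gave for the same difference of 0.39, so the call rests on counting both orders. The call also ended in genes of at least 2500 bp (0.05, exact adjusted p = 0.983), where pairs with K4me3 averaged 0.40 and those without it 0.35, and with the zone at 400 to 900 bp (0.27, exact adjusted p = 0.208). The difference was 0.31 without pairs that have a library under 10000 reads and 0.29 without those with K79me3 as first antibody, settings in which too few pairs are left for a single comparison to pass.

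In set2 the 6 K4me3 pairs averaged 0.32 ± 0.56, with 4 of 6 higher in set2, and the 6 other pairs averaged -0.47 ± 0.50. The difference of 0.79 gave an exact permutation p = 0.0346, adjusted p = 0.277. The 2 K4me3 pairs that were lower were those with K36me3 (-0.03 and -0.62), the mark that set2 lacks. Of the 6 other pairs, 4 include K36me3, so the 2 groups are not balanced for the lost mark. The 2 pairs with neither mark changed by 0.30 and -0.15, the latter on 150 reads in the strain labelled bar1. The 4 K4me3 pairs without K36me3 changed by 0.45 to 0.95. In H3K36R the 6 K4me3 pairs averaged -0.14 ± 0.65 and the 6 others -0.73 ± 0.80. The difference of 0.58 gave an exact permutation p = 0.177, adjusted p = 0.355. Again the K4me3 pairs with K36me3 were far lower (-1.03 and -0.85) than the other 4 (-0.00 to 0.51). Here too, 4 of the 6 pairs without K4me3 include K36me3. The 2 pairs with neither mark changed by 0.37 and 0.10, within the range of those 4 K4me3 pairs, so the difference does not separate K4me3 from the lost mark. For late over middle reads none of 16 comparisons passed the adjusted threshold by the exact permutation test, and 2 had an unadjusted p under 0.05. K4me3 pairs in eaf3 were higher by 0.59 ± 0.19 (6 of 6), against 0.17 ± 0.31 for the others (p = 0.0216, adjusted p = 0.294, exact), and K36me3 pairs in eaf3 differed by -0.39 from the others (p = 0.0411, adjusted p = 0.294, exact). The 2 reference strains themselves differed on this measure: over 12 pairs, late over middle was 0.40 ± 0.31 higher in the strain labelled bar1 than in WT H3, and over the 6 K4me3 pairs 0.62 ± 0.16, which is as large as the eaf3 difference. Middle over 5-prime differed by -0.09 ± 0.28 between them.

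**Figure D3:**
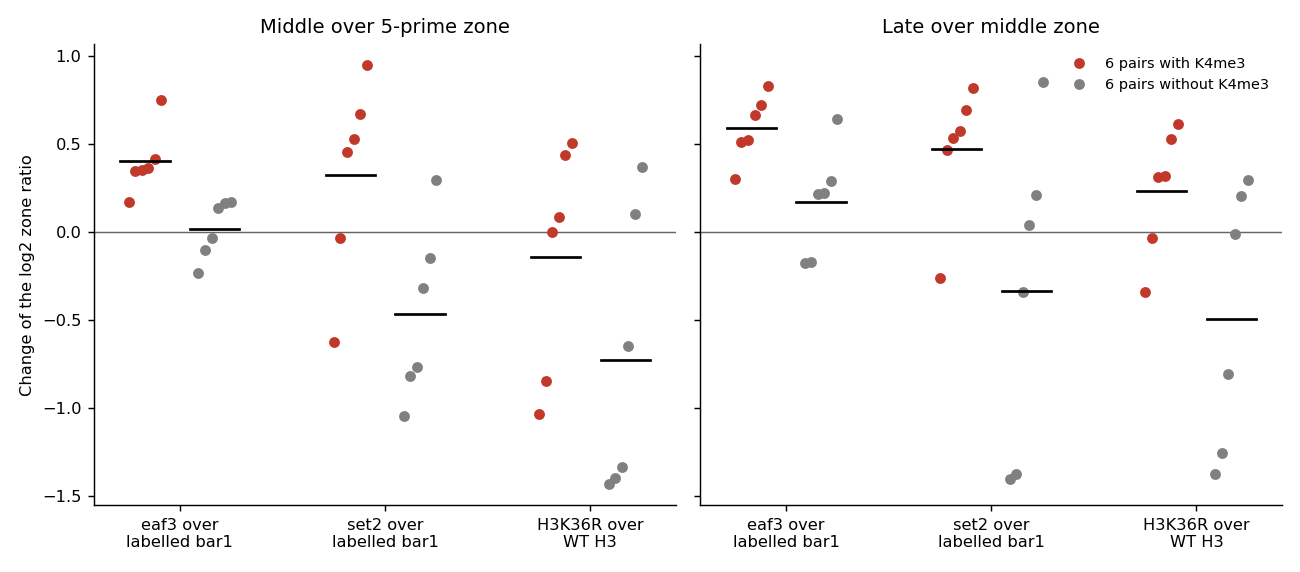
Change of the log2 zone ratio for each ordered antibody pair (eaf3 and set2 over the strain labelled bar1, H3K36R over WT H3), 1 pair a point, with the mean as a bar; red, the 6 pairs with K4me3, and grey, the 6 without. All 6 K4me3 pairs of eaf3 lie above 0 in both panels, while set2 and H3K36R have K4me3 pairs on both sides.

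Single members with 2-fold higher K4me3 in eaf3 and set2 outnumbered those with 2-fold lower K4me3, at shares below those of all ORF nucleosomes and between those of the flanking zones. K4me3 was at least 2-fold higher on 16.8% of members in set2 (20.4% of all tested, 4.29% of the 5-prime zone and 39.2% of the late zone) and at least 2-fold lower on 3.47% (6.31%). In eaf3 it was 2-fold higher on 13.6% (20.4% of all, 3.44% of the 5-prime zone and 41.3% of the late zone) and lower on 2.53% (3.92%), and in H3K36R over WT H3 higher on 10.4% (15.7%) and lower on 5.94% (6.97%). K18ac was 2-fold higher on 5.17% of members in set2 (7.48% of all) and lower on 2.26% (3.94%). In eaf3 these shares were 3.40% (6.25%) and 1.77% (2.72%), and in H3K36R 6.42% (9.15%) and 2.22% (3.17%). In each of these comparisons the members lay below the background in both directions. The split depended on scaling: with CPM over zone reads, K4me3 was higher on 914 members and lower on 521 in set2 (1138 and 235 on the CPM scale) 690 and 449 in eaf3 (921 and 171) and 659 and 578 in H3K36R (702 and 402). For K18ac the balance turned on that scale, with 160 higher and 390 lower in set2 (350 and 153), 101 and 342 in eaf3 (230 and 120) and 272 and 331 in H3K36R (435 and 150).

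Genes differed widely in what their middle zone carried. The highest K4me3 levels in WT H3 were on NAB2, which encodes a nuclear poly(A)-binding protein, PDI1 (protein disulfide isomerase), RET2 (a coatomer subunit), RPA190 (the largest subunit of RNA polymerase I), VTS1 (an RNA-binding protein) and TKL1 (transketolase). NAB2 had 307 CPM of K4me3 against 74.0 CPM of pooled H3, a log2 level of 2.04 (1.70 to 2.37), and the other 5 lay between 1.88 and 1.98. All 4 NAB2 members (chromosome VII, sacCer3, centred 507, 646, 815 and 942 bp into the ORF) were high, with 62, 52, 55 and 64 K4me3 reads against 26, 28, 28 and 21 pooled H3 reads, so this gene showed no decline across the zone. The first of them spans VII:279941-280091 and the last VII:279506-279656. All 6 genes were also above H3 in the strain labelled bar1, at 0.87 to 1.32.

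The lowest K4me3 levels were those of 6 genes with at most 1 read. DAL5 (an allantoate permease) had 0 K4me3 reads of 758641, at least 13.8-fold lower than its 54.6 CPM of H3 when 3 reads are taken as the floor. MAN2 (a mannitol dehydrogenase), HXT16 (a hexose transporter), FLO10 (a flocculin), PBI1 and FRE2 (a ferric reductase) had 1 read each. The level of MAN2 was -5.00 (-7.84 to -2.16) and that of FRE2 -4.47 (-7.32 to -1.62). MAN2 was poor in K36me3 too (-3.41), whereas DAL5 (0.44) and FLO10 (-0.04) were not.

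The highest K36me3 levels were on TUP1, which encodes a transcriptional corepressor (1.60, 1.24 to 1.97), RPA135 (the second subunit of RNA polymerase I, 1.60), PRP43 (an RNA helicase of splicing and ribosome assembly, 1.57) and SSZ1 (a ribosome-associated Hsp70, 1.55). The lowest were on IMA4 (an isomaltase, -4.37), HXT14 (-4.25), GEX1 (a glutathione exchanger, -4.23) and DIT1 (a spore wall gene, -4.02). IMA4, HXT14, HXT16 and GEX1 belong to families of related genes, some of them near-identical copies, among which the counting could split reads. TUP1 also had K4me3 at 1.62, with more reads on the first member than on the last and no such order for K36me3. At 505, 642, 810 and 943 bp it had 44, 27, 26 and 22 K4me3 reads and 100, 103, 103 and 83 K36me3 reads, on 20, 17, 16 and 17 reads of H3. The pair K4me3 then K36me3 followed K4me3, with 19, 17, 9 and 7 reads.

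By the lower of the 2 orders, the pair was highest on NAB2 (2.88 and 3.07 in the 2 orders), SSB2 (a ribosome-associated Hsp70 with the close copy SSB1; 2.72 and 2.72), FRS1 (a phenylalanine tRNA synthetase subunit; 2.68 and 2.66), TUP1 (3.81 and 2.61), NEW1 (an ATPase linked to translation; 2.68 and 2.61) and NOG1 (a GTPase of the large ribosomal subunit; 2.60 and 2.77). Gene by gene the 2 orders correlated at Pearson's r = 0.73 (Spearman's rho = 0.79) over 1975 genes. They have different first antibodies but come from the same strain and share its nucleosome occupancy. K4me3 in the strain labelled bar1 and in WT H3 correlated at r = 0.75 (rho = 0.74), and K36me3 at r = 0.73 (rho = 0.67). K4me3 and K36me3 within WT H3 correlated at r = 0.57 (rho = 0.58). These are correlations across genes, which are not independent replicates.

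In the lists of growth genes K4me3 and K36me3 were above the median of all genes, and in the meiosis and glucose-repressed lists both were below it. In a list of translation, glycolysis and chaperone genes, the 20 with at least 50 pooled H3 reads had a median K4me3 level of 1.15, against -0.08 over all genes, and 14 of 20 were at least 2-fold above H3 (8.96% of all 1975 genes). Their median K36me3 level was 0.90, against 0.43, with 6 of 20 at least 2-fold above H3 (9.37% of all), and all 20 were at least 2-fold above H3 for the pair (20.4% of all). PAB1, the cytoplasmic poly(A)-binding protein, had 194 CPM of K4me3 against 64.7 CPM of H3 (1.57) and stood at 2.61 and 2.34 in the 2 orders of the pair. EFT2, elongation factor 2 with the near-identical copy EFT1, was at 1.15 for K4me3, GUS1 (glutamyl-tRNA synthetase) at 1.00 and RPG1 (a subunit of initiation factor 3) at 0.61. The 24 ribosome biogenesis genes had medians of 0.81 for K4me3, 0.88 for K36me3 and 1.34 for the pair, with 20 of 24 at least 2-fold above H3 for the pair. Among them UTP15, a subunit of the small-subunit processome, was at 0.92 for K4me3, and DIP2 of the same complex at -0.10 with a K36me3 level of 0.55.

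Of the 12 meiosis and sporulation genes, 9 were at least 2-fold below H3 for K4me3 (19.7% of all genes) and 8 for K36me3 (7.70% of all), with medians of -1.80 and -2.47. MSH4, a meiotic crossover gene, had 4 K4me3 reads (-3.37) and a K36me3 level of -3.39, REC8 (the meiotic cohesin) stood at -2.11 and -3.60, and HFM1 (a meiotic helicase) at -1.82 and -3.46. The 13 glucose-repressed genes had medians of -0.84 for K4me3 and -0.56 for K36me3, with SNF3 (a glucose sensor) at -1.60 and -0.41 and FOX2 (peroxisomal beta-oxidation) at -0.84 and -1.95. Stress genes were split: SSA3, a stress-induced Hsp70 of a family of close copies, had 2 K4me3 reads (-4.11, -6.13 to -2.09) and K36me3 at 0.43, while SSE1, its nucleotide exchange factor, was at 1.46 for K4me3 and 0.75 for K36me3 and KAR2, the Hsp70 of the endoplasmic reticulum, at 0.74 and 1.16. The 12 stress genes had medians of 0.72 and 0.59. The 8 respiratory genes had medians of 0.39 and 0.49, with the ATP synthase subunit ATP1 at 0.68 and 1.17 and aconitase (ACO1) at 0.67 and 1.02.

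**Figure D4:**
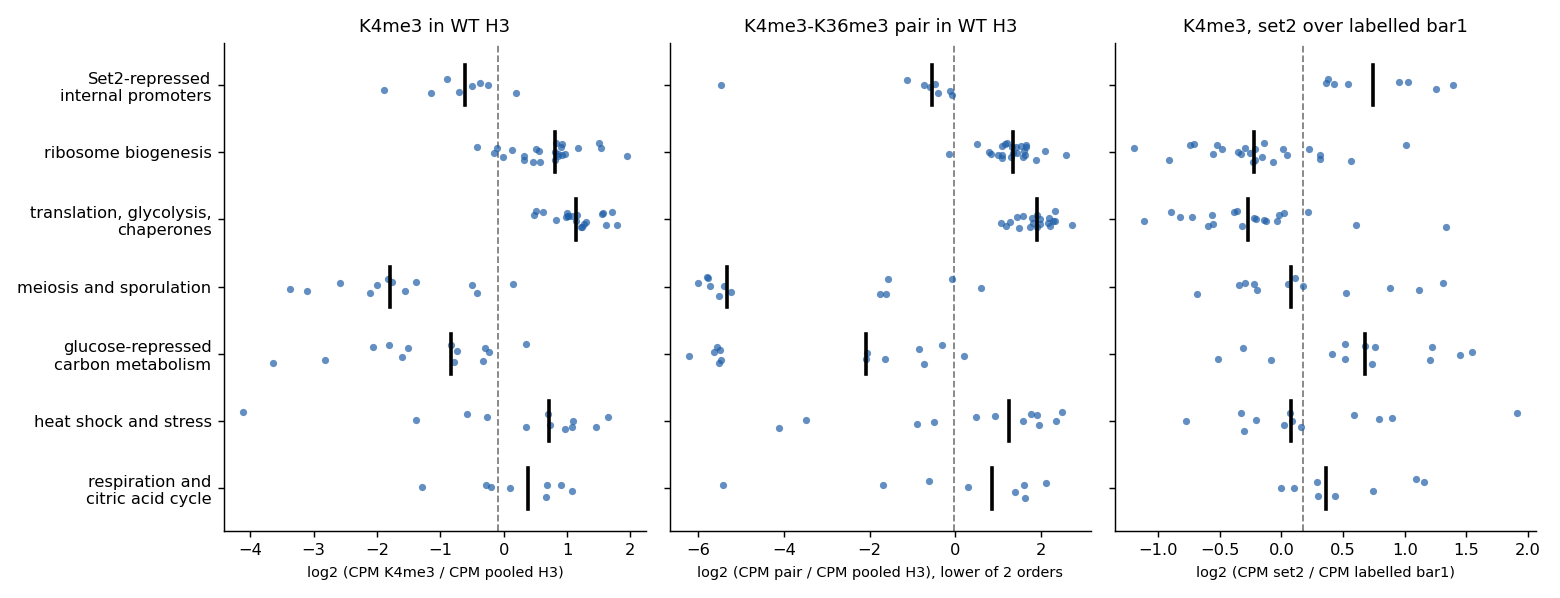
Gene by gene middle-zone values for 7 gene lists (1 gene a point, genes with at least 50 pooled H3 reads; bar, median of the list; dashed line, median of all 1975 genes). Left, K4me3 in WT H3 over pooled H3; centre, the K4me3-K36me3 pair, lower of 2 orders (points near -6 had no reads in an order); right, K4me3 in set2 over the strain labelled bar1. Translation genes lie right of the dashed line in the first panels (20 of 20 at least 2-fold for the pair), and all 8 genes with Set2-repressed internal promoters lie right of it in the third.

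Genes known for cryptic internal promoters that open without Set2 were examined as a list of 10, of which 8 had members and enough reads. FLO8, the best known of them, was not analysed here. Their zone was poorer in K4me3 than that of most genes in WT H3 (median -0.61, against -0.08). In set2 their K4me3 was 0.75 higher by the median than in the strain labelled bar1, against 0.17 over all genes, with 8 of 8 above 0 and 3 of 8 at least 2-fold higher (11.1% of all genes). In eaf3 the median was 0.58 (all genes 0.10), with 3 of 8 at least 2-fold higher (8.56% of all), and in H3K36R over WT H3 it was 0.57 (all genes 0.06), with 0 of 8 at least 2-fold higher (4.56% of all). Scaled to zone reads the medians were 0.54, 0.37 and 0.46 against -0.04, -0.12 and -0.06 over all genes, with 8, 7 and 7 of 8 above 0. The eaf3 and set2 comparisons share the library labelled bar1, and the list was chosen with results of these data known, so it is no independent evidence of a direction. Nor was the rise in set2 and eaf3 particular to this list. The 13 glucose-repressed genes, also poor in K4me3 in WT H3, had medians of 0.68 in set2 and 0.37 in eaf3. At least 2-fold higher were 4 of 13 in set2 and 3 of 13 in eaf3. Their median in H3K36R was -0.37. In set2 the ribosome biogenesis and translation lists had medians of -0.22 and -0.27.

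SMC3, a cohesin subunit, had 60.3 CPM of K4me3 in set2 and 70.6 CPM in eaf3, against 29.0 CPM in the strain labelled bar1, and 50.9 CPM in H3K36R, against 34.3 CPM in WT H3. LCB5, a sphingoid base kinase, had 76.8 CPM in set2 and 48.6 CPM in eaf3, against 39.3 CPM. AVO1 (a TORC2 subunit) was 0.54 higher in set2 and 0.44 in eaf3, and SPB4 (a ribosome assembly helicase) 0.37 in each. STE11, a kinase of the mating pathway, had 42.5 CPM in set2 and 54.0 CPM in eaf3, against 32.5 CPM, and 50.0 CPM in H3K36R, against 35.6 CPM. Over its 4 members at 505, 675, 842 and 984 bp (XII:850296-850446 the first, XII:850775-850925 the last), K4me3 reads were 3, 7, 11 and 15 in set2 and 29, 19, 19 and 24 in eaf3, against 5, 6, 4 and 4 in the strain labelled bar1. In H3K36R they were 11, 13, 14 and 16, against 8, 10, 5 and 4 in WT H3. K18ac on the same members was 18, 33, 34 and 39 reads in H3K36R, against 18, 30, 20 and 14 in WT H3. In STE11 the surplus thus grew toward the end of the zone in set2 and H3K36R. For K4me3 this rests on unscaled counts of 3 to 16 reads a member in these libraries and their references. It is not particular to STE11, since K4me3 was flatter across the zone in both strains.

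The largest K4me3 increases were on genes with few reads in the reference. The changes named here are the largest among genes with at least 50 reads in both libraries together and the same direction in the summed pair libraries. In set2, K4me3 was most increased on INO80 (a chromatin remodelling ATPase), THI72 (a transporter of the thiamine family), AEP3 (a mitochondrial protein), BIR1 (of the chromosomal passenger complex), GDE1 (a glycerophosphodiesterase) and YNR065C. INO80 had 47 reads in set2 (55.5 CPM), against 4 in the strain labelled bar1 (6.83 CPM), a log2 change of 2.85 (1.38 to 4.32), and 63 reads in eaf3 (37.4 CPM, 2.29). The other 5 genes lay between 2.09 and 2.74. Below that read minimum NAM7, which is nearly absent from the strain labelled bar1, had 47 reads in set2 against 0, and the deleted SET2 had 2 against 25. Both were named after their values were seen. Among genes past the minimum, K4me3 was most decreased on NEW1 (-1.55), YIL108W (-1.53) and NOG1 (-1.19), and NEW1 and NOG1 were among the 6 genes highest for the pair in WT H3. Past the same minimum, which NAM7 missed with 40 reads against 0, K18ac in set2 was most increased on BNI1 (a formin, 44.0 CPM against 13.2 CPM), SPC97 (of the gamma-tubulin complex), CMP2 (a calcineurin catalytic subunit), MCH4, YIL067C and VRL1, at 1.27 to 1.66. It was lower on the deleted SET2 itself (0 reads, at least 14.2-fold below 39.0 CPM), on RAX2 (-1.40) and on HXT10 (-1.36).

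In eaf3, the top K4me3 gene was NAM7, with 86 reads against 0 in the strain labelled bar1, which has 6 reads on that gene over all its libraries (at least 9.95-fold, 3 reads as the floor). It was followed by THI22 (128 reads against 4, log2 change 3.30, 1.86 to 4.73), IMA4 (2.98), FRE5 (2.43), SAP190 (2.31), a partner of the Sit4 phosphatase, and INO80. Past the read minimum, which NAM7 missed with 44 K18ac reads against 0, THI22 also led for K18ac in eaf3 (120 CPM, against 40.2 CPM; 1.55) and for K4me3 in H3K36R (57.4 CPM, against 7.91 CPM in WT H3; 2.71), so it was named in 3 of the 6 comparisons. SSD1 (1.33), PRP22 (a splicing helicase, 1.33), AXL1 (1.27), the Ty1 retrotransposon ORF YAR009C (1.25, with many copies in the genome) and the kinase gene GIN4 (1.22) followed for K18ac in eaf3. Decreases in eaf3 were on DPB11 (-1.45), YAT2 (-1.21) and SWI1 (-1.18) for K4me3 and on RDS1 (-1.78), the subtelomeric YHR218W (-1.20) and TPO1 (-1.20) for K18ac.

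In H3K36R over WT H3, K4me3 was also most increased on YNL095C (2.02), YNL018C (1.84), CYR1 (adenylate cyclase, 1.84), GLK1 (glucokinase, 1.77) and LPX2 (1.73), and K18ac on DAL5 (38.5 CPM, against 11.5 CPM; 1.66), the septin gene SHS1 (1.63), LPX2 (1.49), SSA3 (1.45), THI72 (1.45) and WSC3 (1.34). DAL5 and SSA3, which had 0 and 2 K4me3 reads in WT H3, had 47 and 60 K18ac reads in H3K36R, against 12 and 18. Among genes past the read minimum, RDS1, a zinc cluster regulator, was the most decreased for K4me3 (-1.93), followed by ROM1 (-1.62) and DUG2 (-1.55), and GEX2 (-1.80), DIT1 (-1.55) and HXT15 (-1.42) for K18ac. Below it, HFM1 of the meiosis list had 0 K4me3 reads in H3K36R, against 11 in WT H3. In that list the median K4me3 change was -0.80 (all genes 0.06), and 5 of 12 genes were at least 2-fold lower (4.3% of all), on 0 to 41 reads a gene in H3K36R.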

How the data were processed

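Read counts per atlas nucleosome and library were used as the authors deposited them; reads had been aligned with Bowtie2 to sacCer3, per the submitters' processing notes, and the handling of duplicate reads and of multiply mapped reads is not given in the sources used here. ORFs came from RefSeq (assembly R64). Python 3.11.15 with numpy 2.4.6, pandas 2.3.3 and scipy 1.17.1 was used. Zone shares were computed over genes of at least 1500 bp. Nucleosome and gene levels were log2(CPM + 1) differences, with a fold of 2 called. Nucleosomes needed 10 pooled H3 reads, genes 50. The permutation tests added 0.5 reads to zone sums. The gene changes and the permutation test were run on simulated data. The simulated pair values were independent of each other, which the real pairs are not, so that run does not check the test for shared antibodies.

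Each group was 1 library, with no replicates, and intervals cover counting error only. Named genes were the 6 highest and 6 lowest for K4me3 and 4 and 4 for K36me3 (at least 3 members), the 6 highest for the pair, the 6 largest increases and 3 largest decreases per strain comparison of the same direction in the summed pair libraries (50 reads in both libraries together), and up to 4 genes per list by H3 reads. STE11 and FLO8 were named outright. Members, gene lists and tests were chosen with earlier results of these data known. Depth was 150 to 2693698 reads a library, which limits single nucleosomes (median 23 pooled H3 reads) more than zone sums.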

Additional observations from a re-analysis of the deposited data

Results flagged for a closer look

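Over the 6 ordered pairs with K36me3, the log2 ratio of middle-zone over 5-prime reads was lower in every pair in H3K36R (mean -1.12 against WT H3) and in set2 (mean -0.602 against the strain labelled bar1). It was higher in every pair in H3K4R (mean 0.407) and in H3K18R (mean 0.325), both against WT H3. The 6 pairs without K36me3 were also all higher in H3K4R (mean 0.668) and in H3K18R (mean 0.467), so the higher ratio there was not particular to K36me3. Most of those 6 pairs include the mark that the strain lacks, K4me3 in H3K4R and K18ac in H3K18R. The pairs with neither K36me3 nor the lost mark changed by 0.16 and 0.16 in H3K4R and by 0.26 and 0.31 in H3K18R. What was marked is the opposite direction between strains, and that difference was not tested. K36me3 is the mark that H3K36R and set2 lack, and their libraries hold what its antibody brought down without it.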

How the results depend on the processing

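No paired analysis was possible because the labels give no replicate numbers; strain differences were already taken between libraries of the same antibody combination. The log2 middle-zone level over H3 in WT H3 moved with the zone borders: at 400 to 900 bp it was 0.82 for K4me3, 0.25 for K18ac and 0.023 for K36me3, while at 600 to 1100 bp it was 0.20, 0.017 and 0.13. In genes of at least 2500 bp it was 0.87 for K4me3, 0.26 for K18ac, 0.034 for K36me3 and 0.053 for K79me3. With H3 pooled it was 0.46, 0.092, 0.069 and 0.058 for the same marks, with every gene weighted alike 0.62 for K4me3, 0.050 for K36me3 and 0.059 for K79me3, and without the top 1% of nucleosomes 0.46 for K4me3. The pair over the product of its marks changed sign for K4me3 then K36me3 at 400 to 900 bp (-0.020) and in the long genes (-0.0059), and was 0.085 at 600 to 1100 bp and 0.048 without the top 1%. The other order stayed below the product under these settings, at -0.20, -0.27, -0.099 and -0.14.

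The eaf3 K4me3 difference of middle over 5-prime was no longer past the threshold at 400 to 900 bp (0.27) and in the long genes (0.049). Without libraries under 10000 reads it was 0.31, without K79me3 as first antibody 0.29 and with both orders of a pair averaged 0.39, the last 2 chosen after seeing the data. These 3 settings leave too few assignments for a lone result to pass (smallest adjusted p 0.286, 0.127 and 1, exact permutation test), so the lost call says nothing there. Its late over middle difference passed at 400 to 900 bp (0.58) and in the long genes (0.65), with adjusted p = 0.0346 in both exact permutation tests. Differences that passed no threshold and turned their sign were, for middle over 5-prime, K36me3 in H3K4R (0.14), K79me3 in H3K36R (-0.33) and K18ac in set2 (-0.048) without the lost mark, K4me3 in H3K18R (-0.0019) and K79me3 in set2 (0.019) at 400 to 900 bp, and K79me3 in eaf3 (0.074) and set2 (0.076) in the long genes. For late over middle they were K18ac in H3K4R (0.51 without shallow libraries, 0.30 without the lost mark), K4me3 in H3K18R (0.090 under both), K36me3 in H3K18R (-0.10 under both, -0.0074 at 400 to 900 bp, -0.045 in long genes, -0.0071 without the top 1%), K79me3 in H3K18R (-0.0083 at 400 to 900 bp), K18ac in eaf3 (-0.021 in long genes), K18ac in set2 (-0.061 without the lost mark) and K79me3 in set2 (-0.092 at 400 to 900 bp, -0.021 in long genes, -0.56 without shallow libraries, -0.046 without the lost mark, -0.27 without K79me3 first). The cause was not tested.

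Counts of members past 2-fold moved in 60 of their alternatives and stayed within 1.5 times in 59. With a pseudocount of 5 CPM they were 462 for K36me3 in WT H3, 595 and 103 for higher K4me3 and K18ac in set2, 409 and 55 in eaf3, and 280 and 132 in H3K36R. At 1.5-fold they were 1779 for K4me3 and 2695 for K36me3 in WT H3, 2076 and 1301 for K4me3 and K18ac in set2, 1787 and 1047 in eaf3, and 1534 and 1447 in H3K36R. Over zone reads they were 1723 for K4me3 and 262 for K36me3 in WT H3, and 160, 101 and 272 for higher K18ac in set2, eaf3 and H3K36R. With 4 times the reads required, 82 members were left, of which 1 passed for K4me3, 0 for K36me3 and 2 for the pair in WT H3, 20 and 4 for K4me3 and K18ac in set2, 18 and 6 in eaf3, and 9 and 4 in H3K36R. Depth limits single nucleosomes, at a median of 23 pooled H3 reads, and the 32 libraries under 10000 reads.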
